A study of Mus musculus with 32 samples.

Results

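The RNA of 10 steroid-converting enzymes was followed across 32 primary mouse melanomas. The enzymes were Srd5a1, Akr1c14, Akr1c18, Hsd17b2, Hsd17b1, Cyp19a1, Hsd17b4, Hsd17b11, Hsd17b12 and Hsd11b1, found by symbol among the 50600 genes of the deposited tables. They were chosen by their role in steroid conversion, with earlier values of these data known, in which Akr1c14 had stood out between ΔEcad and Ecad females. Values of that contrast are therefore given as a description. The comparison within males used tumours that the choice did not.

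All mice carried Tyr::NrasQ61K, an NRAS oncogene driven by the tyrosinase promoter of melanocytes, 1 functional copy of the tumour suppressor gene Cdkn2a, and floxed Cdh1 alleles (Cdh1F/F), on a C57BL/6J background. Cdh1 encodes the adhesion protein E-cadherin. ΔEcad mice also carried Tyr::CreA, a Cre recombinase under the same promoter that deletes Cdh1 in melanocytes. That allele is named by the study's methods, while the labels of these tumours read Tyr::NRAS/° in its place. Tumours were collected once they had grown to a size limit. The labels gave 8 tumours for each of Ecad males, ΔEcad males, Ecad females and ΔEcad females, and named no treatment. Ages are not given in the sources used here. Each library was made from a whole tumour, so fewer cells of a type and less RNA per cell cannot be told apart.

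Steroid hormones are switched on and off in target tissues by pairs of enzymes that add or remove hydrogen at the same position. Reductases of the Srd5a and Akr1c families convert androgens and progesterone, hydroxysteroid dehydrogenases of the Hsd17b family interconvert strong and weak oestrogens and androgens, aromatase makes oestrogens, and Hsd11b1 regenerates active glucocorticoid. Skin is known as a site of this local conversion, in keratinocytes, sebaceous glands, fat and fibroblasts. Several Hsd17b enzymes act mainly on fatty acids.

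The promoters of Akr1c14, Akr1c18 and Srd5a1 are shown because these reductases of chromosome 13 had higher mean levels in ΔEcad than in Ecad females, as described further on. Each stretch covers 250 bases before to 50 bases after the start of a RefSeq transcript (build GRCm38.p6), read along the gene's strand. Capitals mark matches, on either strand, to GGTCA (the half-site of an oestrogen response element, and part of its full form), TGTTCT (the half-site of an androgen or glucocorticoid response element, and part of its full form), CCAAT or TATAAA.
Akr1c14, chr13:4059341-4059640, + strand: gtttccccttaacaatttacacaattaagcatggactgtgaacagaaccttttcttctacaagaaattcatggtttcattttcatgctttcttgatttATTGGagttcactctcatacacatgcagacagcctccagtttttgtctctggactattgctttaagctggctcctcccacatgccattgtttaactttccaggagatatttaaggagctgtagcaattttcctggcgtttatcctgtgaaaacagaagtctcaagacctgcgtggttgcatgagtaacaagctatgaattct
Akr1c18, chr13:4150597-4150896, - strand: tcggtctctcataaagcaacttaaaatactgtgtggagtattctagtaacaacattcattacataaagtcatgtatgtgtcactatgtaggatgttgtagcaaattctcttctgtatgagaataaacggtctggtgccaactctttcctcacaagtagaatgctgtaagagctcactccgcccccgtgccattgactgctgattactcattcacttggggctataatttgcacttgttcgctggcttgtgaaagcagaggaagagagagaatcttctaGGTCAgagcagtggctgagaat
Srd5a1, chr13:69611414-69611713, - strand: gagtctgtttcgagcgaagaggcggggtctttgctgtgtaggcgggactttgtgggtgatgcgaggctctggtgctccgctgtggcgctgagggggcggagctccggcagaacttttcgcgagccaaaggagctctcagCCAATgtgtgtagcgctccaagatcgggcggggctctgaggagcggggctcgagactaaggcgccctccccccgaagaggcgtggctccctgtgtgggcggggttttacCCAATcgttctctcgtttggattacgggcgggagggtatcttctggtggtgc

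Both Akr1c promoters were poor in G and C, with 39.7% in Akr1c14 and 42.3% in Akr1c18, and only 9.5% and 14.9% of mouse promoters had less. Srd5a1 had 63.0%, more than 77.8% of promoters. The Akr1c14 match was CCAAT on the other strand, the Akr1c18 match was GGTCA behind the start site, and Srd5a1 held CCAAT 2 times. Promoter sequences were found for 7 of the 10 enzymes, and a gene with several promoters, here Cyp19a1, was counted when any of them held the motif. The shares of mouse promoters count single promoters, so the units differ. CCAAT was present in 6 of the 7, against 37.41% of 32851 mouse promoters of the same length, GGTCA in 2 of 7 (Akr1c18 and Cyp19a1) against 40.48%, TATAAA in Cyp19a1 only among these 7 against 13.62%, and TGTTCT in 0 of 7 against 18.97%. The full elements GGTCANNNTGACC and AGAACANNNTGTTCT were in no promoter of these 7 enzymes and in 0.07% and 0.01% of all promoters. Such matches describe letters and are not binding sites.

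Total counts per tumour were 24036333 to 63923086. Cdh1, the targeted gene, was at a median of 144.6 TPM (25 to 281.9) among Ecad males and 3.29 TPM (0.79 to 65.2) among ΔEcad males, but at 30.6 TPM (2.16 to 151.2) and 46.7 TPM (0.17 to 143.3) among the libraries labelled Ecad and ΔEcad female. It did not separate the female genotypes, whose directions rest on the labels. TPM is a length-corrected share of the transcripts of a library, and it is the unit of every level given here. Sex-linked genes went against the label of ΔEcad male 2, with Xist at 6.41 TPM and no count over 4 Y-linked genes, where the remaining males had at most 0.2 TPM and at least 1459 counts. Its label was used, and in both pairwise comparisons it enters the enzymes with an unadjusted p under 0.05 are also given with that library left out. Melanocytic marker RNA (8 genes, summed) was 5555 to 74922 TPM in 31 tumours and 31.3 TPM in ΔEcad male 7. Keratinocyte marker RNA (12 genes, summed) ranged from 5.32 to 42323 TPM, and its group medians were 5689 and 537 TPM for Ecad and ΔEcad males, and 8.26 and 7181 TPM for Ecad and ΔEcad females.

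A trio of dehydrogenases with roles in fatty acid metabolism supplied most of the enzyme RNA. Hsd17b12, which elongates fatty acids and reduces oestrone, had a median of 210.9 TPM over the 32 tumours, Hsd17b11, an enzyme of lipid droplets that oxidizes androgens, 134.3 TPM, and Hsd17b4, a peroxisomal enzyme that degrades fatty acids and oxidizes oestradiol, 75.8 TPM. Hsd17b12 was the highest of the 10 in 29 tumours and Hsd17b11 in the other 3. Together these genes made up 53.5% to 98.4% of the summed TPM of the 10 enzymes, the lowest share being in ΔEcad female 2.

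Hsd11b1 and Srd5a1 were intermediate, with medians of 8.45 and 8.28 TPM, and did not differ beyond their spread, Hsd11b1 being higher in 18 of 32 tumours. Hsd17b1, which makes oestradiol from oestrone, followed at 4.48 TPM. Akr1c18 (0.765 TPM), Akr1c14 (0.39 TPM) and Hsd17b2 (0.13 TPM) were low at the median, and their order changed between tumours, the first of each neighbouring pair being higher in 20 and 19 of 32. Akr1c18 was at or under 3 counts, the limit that a count of 0 allows, in 9 tumours and Hsd17b2 in 17. Cyp19a1, the gene of aromatase, was at or under 3 counts in 30 of 32 tumours.

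**Figure D1:**
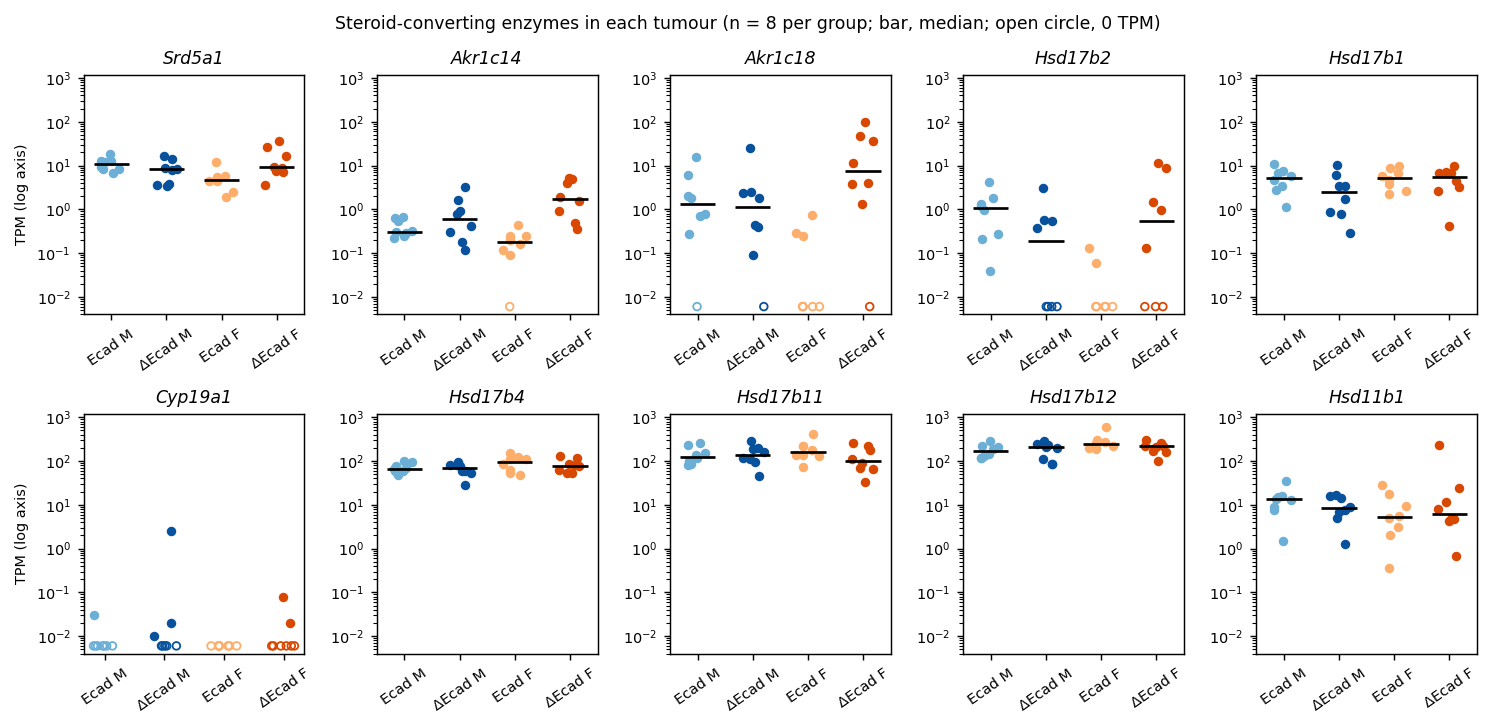
Levels of the 10 enzymes in TPM (log axis) in each of 32 tumours, by genotype and sex. Points are tumours, bars are group medians and open circles are tumours at 0 TPM. Hsd17b4, Hsd17b11 and Hsd17b12 stay high in every group, while Akr1c18 spans 0 to 100.5 TPM.

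Akr1c14 (ENSMUSG00000033715, chromosome 13, 4049011 to 4090688, GRCm38) removes active androgen and progesterone metabolites by reducing them further. Its lowest, median and highest levels were 0.22, 0.31 and 0.66 TPM in Ecad males and 0.12, 0.60 and 3.26 TPM in ΔEcad males. In Ecad females they were 0.00, 0.18 and 0.43 TPM, and in ΔEcad females 0.36, 1.745 and 5.15 TPM. The ΔEcad females thus lay high as a group, 7 of 8 above every Ecad female, and 3 of them (tumours 2, 3 and 7) were over 4 TPM. Of all tumours, ΔEcad female 3 had the lowest summed macrophage (26.9 TPM) and endothelial (8.57 TPM) marker RNA. Its fibroblast marker RNA (9633 TPM) was the highest, and the part of this content was not tested. Counts of Akr1c14 were low throughout, from 0 to 218. Of its exon bases, 7.2% are shared with Gm18857, a gene with 0 counts in every tumour, so the value of Akr1c14 is uncertain to that extent.

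Akr1c18 (ENSMUSG00000021214, chromosome 13, 4132615 to 4150654) inactivates progesterone. Ecad males had 0.00, 1.295 and 15.39 TPM as lowest, median and highest, and ΔEcad males 0.00, 1.12 and 25.48 TPM. Ecad females had 0.00, 0.00 and 0.74 TPM, against 0.00, 7.64 and 100.49 TPM in ΔEcad females. The highest males were Ecad male 6 and ΔEcad male 3. Among ΔEcad females, tumours 2, 7 and 1 had 100.49, 48.32 and 37.17 TPM, while tumour 4 was at 0 TPM and overlapped the Ecad females. Only 0.58% of its stretches of 50 bases occur in another gene, Akr1cl.

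Srd5a1 (ENSMUSG00000021594, chromosome 13, 69573449 to 69611442) reduces testosterone and progesterone to their dihydro forms, on which Akr1c14 acts. It was detected in every tumour. Its levels ran from 6.79 through a median of 10.745 to 18.04 TPM in Ecad males and from 3.47 through 8.145 to 16.37 TPM in ΔEcad males. Those of Ecad females were 1.95, 4.75 and 12.12 TPM, and those of ΔEcad females 3.68, 9.135 and 35.89 TPM. Ecad females were the lowest group, with 7 of 8 below every Ecad male. The predicted gene Gm17108, which had at most 15 counts, shares 16.4% of the exon bases of Srd5a1, which is uncertain to that extent.

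Hsd17b2 (ENSMUSG00000031844, chromosome 8, 117701904 to 117759027) oxidizes oestradiol and testosterone to weaker hormones. Ecad males had 0.04, 1.07 and 4.14 TPM, and ΔEcad males 0.00, 0.185 and 3.14 TPM. All Ecad females were at or under 3 counts, with 0.13 TPM at most. ΔEcad females had 0.00, 0.545 and 11.66 TPM and were divided, with tumours 2 and 1 at 11.66 and 8.98 TPM and 4 tumours at or under 3 counts. Since 1 group had almost no counts, fitted fold changes of Hsd17b2 against Ecad females depend on the prior count.

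Its counterpart in the opposite direction, Hsd17b1 (ENSMUSG00000019301, chromosome 11, 101078411 to 101080527), overlapped widely between the groups. Its medians were 5.295 and 2.525 TPM among Ecad and ΔEcad males, and 5.115 and 5.61 TPM among Ecad and ΔEcad females, within a range of 0.29 to 11.02 TPM. Cyp19a1 (ENSMUSG00000032274, chromosome 9, 54165937 to 54268110) had 0 counts in all 8 Ecad females and at most 5 in ΔEcad females. It reached 151 counts, or 2.59 TPM, in ΔEcad male 7, the tumour with the lowest melanocytic RNA, and at most 2 counts in the other males. The filter on low counts left it untested, and 9 of the 10 enzymes were tested.

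Hsd17b12 (ENSMUSG00000027195, chromosome 2, 94032689 to 94157964) had medians of 170.3 and 205.4 TPM among Ecad and ΔEcad males, and of 242.4 and 215.8 TPM among Ecad and ΔEcad females. All 8 Ecad females were above the median of the Ecad males, and Ecad female 3, at 613.66 TPM, was the highest of all tumours. Hsd17b11 (ENSMUSG00000029311, chromosome 5, 103989762 to 104021919) was also highest in Ecad female 3, at 412.53 TPM, and lowest in ΔEcad female 2, at 34.06 TPM. Salivary gland marker RNA (8 genes, summed) was 15316 TPM in Ecad female 3 and at most 769 TPM elsewhere, and its part in these levels was not tested. Without that tumour the log2 fold change of Hsd17b12 between Ecad females and Ecad males was 0.40, against 0.76 with it. Hsd17b4 (ENSMUSG00000024507, chromosome 18, 50128201 to 50196269) varied least, from 27.76 to 152.05 TPM.

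Hsd11b1 (ENSMUSG00000016194, chromosome 1, 193221634 to 193264075) had medians of 13.295 and 8.365 TPM among Ecad and ΔEcad males, and of 5.36 and 6.315 TPM among Ecad and ΔEcad females. One tumour, ΔEcad female 8, was at 235.36 TPM, and the other ΔEcad females had a mean of 8.30 TPM. The gene lies across the keratinocyte gene Lamb3 on the other strand, with which it shares 0 exon bases. Whether the strand was used in counting is not given in the sources used here.

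ΔEcad and Ecad males were compared to ask whether the loss of E-cadherin altered the enzymes in tumours that had no part in their choice. None of the 9 tested enzymes was called, as for all genes, of which 0% were called (0 of 17717, with 1814 at an unadjusted p under 0.05). Calls needed both an adjusted p from edgeR under 0.05 and a log2 fold change over 1 in either direction. Akr1c14 was the only tested enzyme with an unadjusted p under 0.05. Means of Akr1c14 were 0.95 ± 1.05 TPM for ΔEcad males and 0.40 ± 0.18 TPM for Ecad males (SD, n = 8 each). The log2 fold change was 1.26 (SE 0.59, 95% interval 0.05 to 2.48, edgeR adjusted p 0.476). In 5 of 8 ΔEcad males Akr1c14 was above the median of the Ecad males, in 4 it was above all of them, and in 2 it was below all of them. Without ΔEcad male 7 the log2 fold change was 0.74, and without the library labelled ΔEcad male 2 it was 1.37. With keratinocyte and melanocytic scores (defined below) in the model it was 0.69.

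Akr1c18 differed by 0.42 (SE 1.20, edgeR adjusted p 0.917) between male genotypes, which was within the spread. This value turned to -1.34 without ΔEcad male 3, the tumour with the highest Akr1c18 among males, and was 1.44 without Ecad male 6. Hsd17b2 differed by -0.86 (SE 1.21, 95% interval -3.32 to 1.61, edgeR adjusted p 0.813), also within the spread. Srd5a1 (-0.12, 95% interval -0.91 to 0.66) and Hsd17b4 (0.08, 95% interval -0.37 to 0.54) had the narrowest intervals around 0 along with Hsd17b12 (0.28, 95% interval -0.38 to 0.93). The median over the 9 enzymes was 0.08, against 0.11 over all genes tested.

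ΔEcad and Ecad females gave the contrast on which Akr1c14 had been selected, and its values are described without a test. Mean Akr1c14 was 2.43 ± 2.00 TPM in ΔEcad and 0.188 ± 0.129 TPM in Ecad females, Akr1c18 25.8 ± 35.1 and 0.160 ± 0.264 TPM, and Hsd17b2 2.90 ± 4.67 and 0.0238 ± 0.0478 TPM (SD, n = 8 each). On the log2 scale Akr1c14 differed by 3.58 (SE 0.65), Akr1c18 by 7.45 (SE 1.61) and Hsd17b2 by 6.73 (SE 1.61), the last value depending on the prior count. These 3 enzymes were past the calling threshold, in a contrast where 1.2% of all genes were called, and nothing is read from that count. With each tumour left out in turn, the calls of Akr1c14, Akr1c18 and Hsd17b2 were lost in 8, 10 and 15 of 32 refits, among them those without ΔEcad female 2 or ΔEcad female 7 and those without any of Ecad females 1, 2, 3, 6, 7 and 8. Srd5a1 had a log2 fold change of 1.41 (SE 0.39) and was past the threshold in 5 of the refits. That of Hsd11b1 was 1.74 (SE 0.82), and -0.09 without ΔEcad female 8.

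The 3 abundant dehydrogenases had negative values in females. Log2 fold changes were -0.70 (SE 0.43) for Hsd17b11, -0.57 (SE 0.32) for Hsd17b12 and -0.19 (SE 0.22) for Hsd17b4, and -0.18 (SE 0.56) for Hsd17b1. None of these 4 values was past the threshold. Without Ecad female 3 those of Hsd17b11 and Hsd17b12 were -0.34 and -0.21. In the same contrast all 12 keratinocyte markers had positive log2 fold changes (median 5.36), as did all 7 adipocyte markers (median 4.07), with none of either list called. When keratinocyte and melanocytic scores (mean log2 CPM of the marker genes) were added to the model, the log2 fold change was 3.07 for Akr1c14, 2.87 for Akr1c18 and 1.53 for Hsd17b2.

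**Figure D2:**
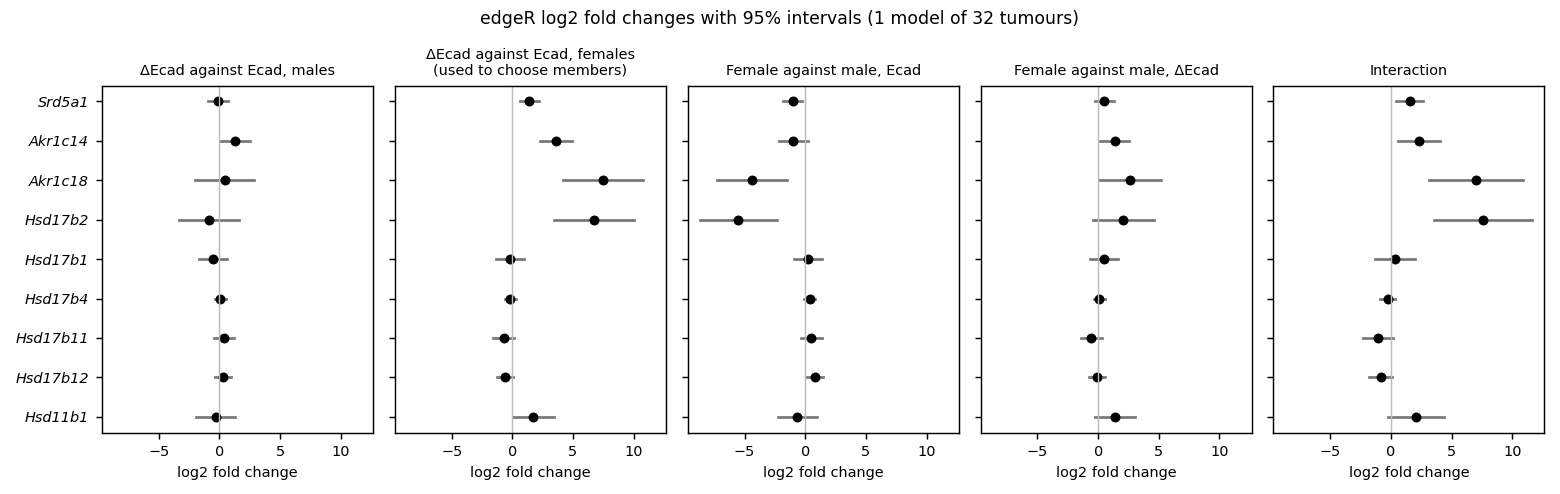
Log2 fold changes of the 9 tested enzymes in each comparison (points) with 95% intervals (lines), from 1 edgeR model of 32 tumours. Akr1c18 and Hsd17b2 have the widest intervals, and the second panel is the contrast that was known when the enzymes were chosen.

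Female and male tumours labelled Ecad were compared to look for sex differences without the Cre allele. Their Cdh1 RNA was not alike, with medians of 30.6 TPM in females and 144.6 TPM in males. The 8 females of this comparison are also part of the contrast above, so its enzyme values are not independent of the choice. No enzyme was called, where 0.0508% of all genes were called. An unadjusted p under 0.05 was found for 4 of the 9, and for 16% of all genes tested. Of these 4, 3 had lower values in females. Akr1c18 was at 0.160 ± 0.264 TPM in females and 3.39 ± 5.22 TPM in males (SD, n = 8 each), or -4.40 on the log2 scale (SE 1.43, edgeR adjusted p 0.126). Hsd17b2 was at 0.0238 ± 0.0478 and 1.24 ± 1.32 TPM, or -5.51 on the log2 scale (SE 1.55, edgeR adjusted p 0.106), with 6 of 8 females below every male. Srd5a1 had the medians of 4.75 and 10.745 TPM given above, a difference of -1.05 (SE 0.39, edgeR adjusted p 0.173), and 7 of 8 females were below every male. Hsd17b12 was at 283 ± 139 TPM in females and 178 ± 60.4 TPM in males (0.76, SE 0.33, edgeR adjusted p 0.235).

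Akr1c18 and Hsd17b2 were at or under 3 counts in 5 and 8 of the 8 Ecad females and passed the filter on low counts through the other groups: with only the Ecad tumours it removed both, and Akr1c14. DESeq2, run on all 32 tumours, called both Akr1c18 (adjusted p 0.0159) and Hsd17b2 (adjusted p 0.00847) in this comparison. It called 1159 of 33460 genes there, and nothing is read from these 2 calls. Adjusted p over the settings tried, single tumours left out included, ran from 0.0159 to 1 for Akr1c18 and from 0.00847 to 1 for Hsd17b2. All 12 keratinocyte markers had negative log2 fold changes here (median -4.85, none called). With marker scores in the model, the value of Akr1c18 turned to 0.52 and that of Hsd17b2 was -1.12.

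In ΔEcad tumours, which share their 8 females with the contrast known when the enzymes were chosen, no enzyme differed by sex past the threshold, where 0.0395% of all genes were called. Unadjusted p was under 0.05 for 2 enzymes, and for 8.81% of all genes. Since Akr1c14 had stood out in ΔEcad females, nothing is read from the p-values of the enzymes here. For females against males, Akr1c14 differed by 1.35 (SE 0.59, edgeR adjusted p 0.539) and Akr1c18 by 2.62 (SE 1.26, edgeR adjusted p 0.564) on the log2 scale. Without the library labelled ΔEcad male 2 these values were 1.25 and 2.58. Without ΔEcad female 2 that of Akr1c18 was 1.91, and without ΔEcad male 3 it was 4.38. That of Hsd11b1 was 1.40 with and -0.42 without ΔEcad female 8.

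The interaction asked whether the genotype difference was larger in females than in males, and it shares all female tumours with the contrast used for the choice. By edgeR 0% of all genes were called (3131 of 17717 had an unadjusted p under 0.05, and DESeq2 called 1457). Since Akr1c14 had stood out in females, the values of the enzymes are given as a description, with no test. They were 7.58 (SE 1.98) for Hsd17b2, 7.03 (SE 1.90) for Akr1c18, 2.32 (SE 0.84) for Akr1c14 and 1.53 (SE 0.55) for Srd5a1. Hsd11b1 had an interaction of 2.06, and of 0.23 without ΔEcad female 8. The keratinocyte markers had a median interaction of 7.08. With marker scores in the model the interaction was 1.55 for Akr1c18, 1.62 for Hsd17b2 and 2.38 for Akr1c14.

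**Figure D3:**
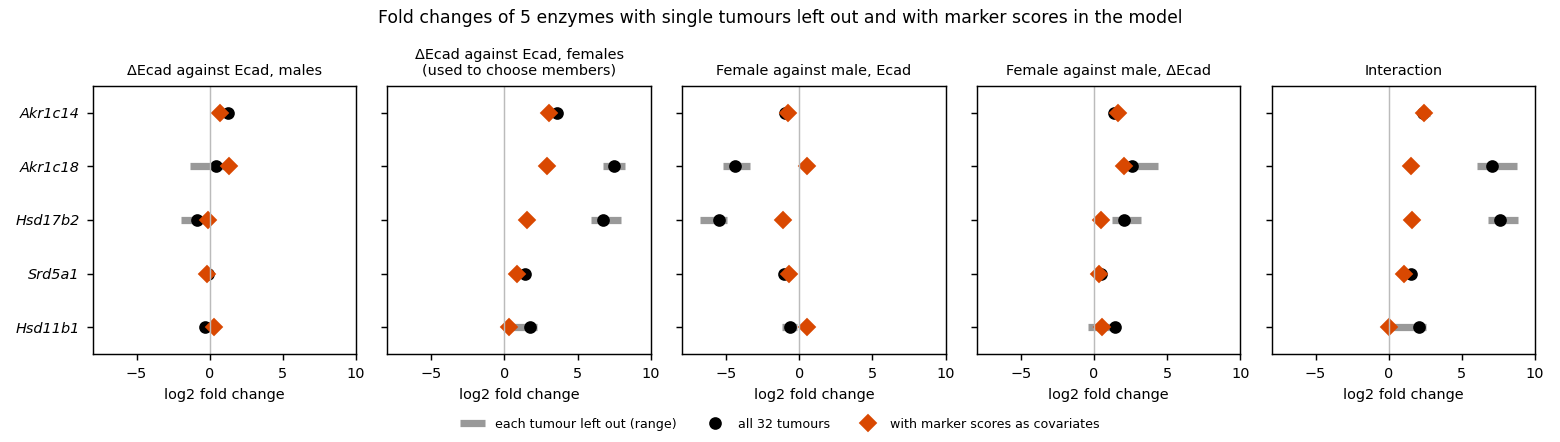
Log2 fold changes of 5 enzymes in the 5 comparisons with all tumours (circles), over refits leaving out each tumour (grey range) and with keratinocyte and melanocytic scores as covariates (diamonds). The values of Akr1c18 and Hsd17b2 move toward 0 with the covariates in females and in the interaction, while Akr1c14 moves from 3.58 to 3.07 in females.

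The content of other tissues was then set against each enzyme. Over 72 relations of 9 enzymes with 8 marker scores, 21 had an adjusted permutation p under 0.05 by Pearson r, 13 positive and 8 negative. Enzyme levels here are log2 CPM, and a permutation p given beside r and rho is that of r. Scores are the mean log2 CPM (counts scaled to library size) of each marker list. By r, Hsd17b2 was most closely related to the sebaceous gland score (r = 0.94, rho = 0.86, permutation p 1e-05, adjusted 0.00018, n = 32). The p of 1e-05 is the smallest that 100000 permutations can give. Without the 2 tumours farthest from the median score r was 0.94. Within the groups, the rank correlation was 0.95 in Ecad males, 0.94 in ΔEcad males and 0.90 in ΔEcad females, and 0.11 in Ecad females, where Hsd17b2 was at or under 3 counts in all 8 tumours. With the keratinocyte score its r was 0.90 (permutation p 1e-05, adjusted 0.00018), and its rho of 0.88 was above that with the sebaceous gland score. Over all 32 tumours Hsd17b2 was at or under 3 counts in 17.

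Keratinocyte scores left a gap between 0.99 and 3.65 and were therefore read on each side of it, as a description. In the 18 tumours above the gap, 7 of them Ecad males, 4 ΔEcad males, 2 Ecad females and 5 ΔEcad females, r with the score was 0.86 for Hsd17b2, 0.80 for Akr1c18 and 0.67 for Srd5a1. In the 14 tumours below it r was -0.28, 0.46 and -0.33 in that order. For Akr1c14, Hsd17b1 and Hsd11b1 r was 0.56, 0.03 and -0.16 above the gap, and 0.15, -0.2 and 0.32 below it. For Hsd17b12, Hsd17b4 and Hsd17b11 r was -0.73, -0.61 and -0.56 above the gap, and 0.09, -0.43 and 0.03 below it. Hsd17b2 did not exceed 0.06 TPM in these 14 tumours, and Akr1c18 did not exceed 3.87 TPM. Over all 32 tumours Akr1c18 had an r of 0.76 with the keratinocyte score (rho = 0.82, permutation p 1e-05, adjusted 0.00018). With the sebaceous gland score its r was 0.75 (rho = 0.69, permutation p 1e-05, adjusted 0.00018). Its relation with the adipocyte score was weaker (r = 0.63, rho = 0.65, permutation p 0.00012, adjusted 0.00144), with rho of 0.55 to 0.79 within the groups and r of 0.57 without the 2 farthest tumours.

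For Akr1c14, the neighbour of Akr1c18 on chromosome 13, r was -0.50 with the melanocytic score (rho = -0.55, permutation p 0.00662, adjusted 0.0318) and 0.46 with the fibroblast score (rho = 0.56, permutation p 0.00746, adjusted 0.0334). The tumours permuted include the females between which Akr1c14 had stood out, so nothing is read from these p-values. Centred on the group means, its r with the melanocytic score was -0.55. Akr1c18 had a similar r of 0.48 with the fibroblast score (rho = 0.56, permutation p 0.00574, adjusted 0.0295), and of 0.34 when centred on the group means. Its rho was 0.5, 0.36, -0.11 and 0.83 in Ecad males, ΔEcad males, Ecad females and ΔEcad females. With the melanocytic score Akr1c18 had an r of -0.26 (permutation p 0.159, adjusted 0.273). Its rho there was -0.39 (permutation p of rho 0.0258, adjusted 0.0663), and -1.0, 0.14, 0.08 and -0.52 in the same group order. For Akr1c14 the relation with the melanocytic score was negative in each group, with rho of -0.57, -0.93, -0.14 and -0.76 in Ecad males, ΔEcad males, Ecad females and ΔEcad females. For Akr1c14 with the fibroblast score these were 0.64, 0.31, -0.14 and 0.81, so the sign differed in Ecad females, and r was 0.29 when both were centred on the group means. Without the 2 tumours farthest from the median, r was -0.52 for the melanocytic and 0.39 for the fibroblast score.

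The abundant dehydrogenases differed from these reductases. Hsd17b12 was positively related to the melanocytic score (r = 0.51, rho = 0.53, permutation p 0.00838, adjusted 0.0334) and negatively to the fibroblast score (r = -0.50, rho = -0.49, permutation p 0.00372, adjusted 0.0243). Hsd17b11 was negatively related to the fibroblast score (r = -0.61, rho = -0.59, permutation p 0.00022, adjusted 0.00226) and Hsd17b4 to the adipocyte score (r = -0.54, rho = -0.53, permutation p 0.00159, adjusted 0.0127). Hsd11b1 was positively related to the fibroblast score (r = 0.57, rho = 0.57, permutation p 0.00067, adjusted 0.00603), positive in all 4 groups with rho of 0.43 to 0.86. Without the 2 farthest tumours r was 0.46 and -0.34 for Hsd17b12, -0.52 for Hsd17b11, -0.51 for Hsd17b4 and 0.64 for Hsd11b1. When both measures were centred on the group means, 12 of the 72 relations passed.

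**Figure D4:**
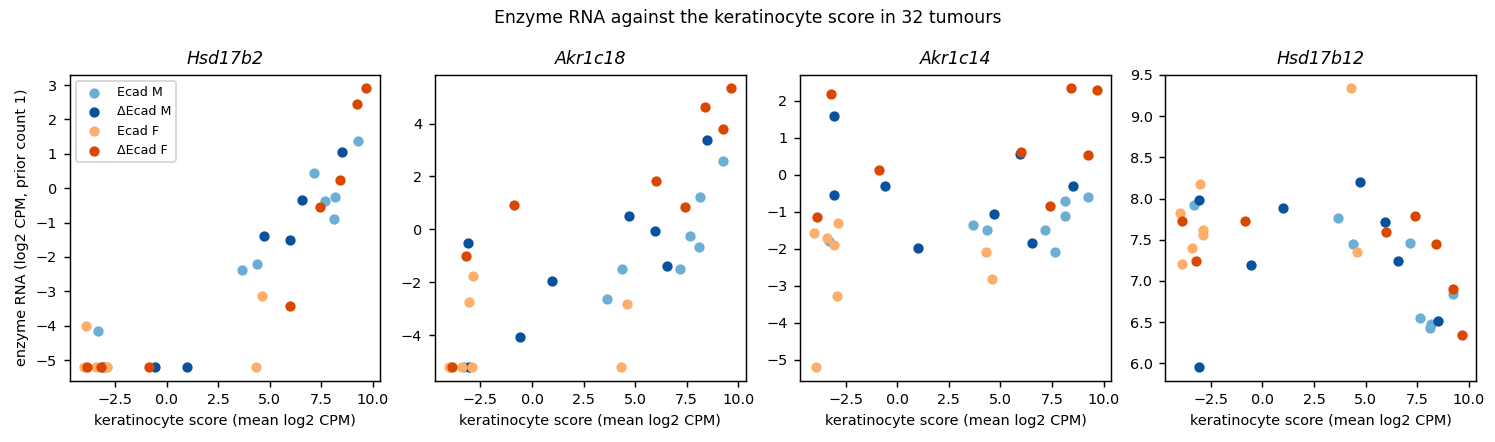
Log2 CPM of 4 enzymes against the keratinocyte score in 32 tumours, coloured by group. Above the gap between 0.99 and 3.65 Hsd17b2 and Akr1c18 are higher at higher scores (r of 0.86 and 0.80 over 18 tumours). Over the same tumours r is 0.56 for Akr1c14 and -0.73 for Hsd17b12. At low scores ΔEcad female 3 and ΔEcad male 7 are high in Akr1c14.

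**Figure D5:**
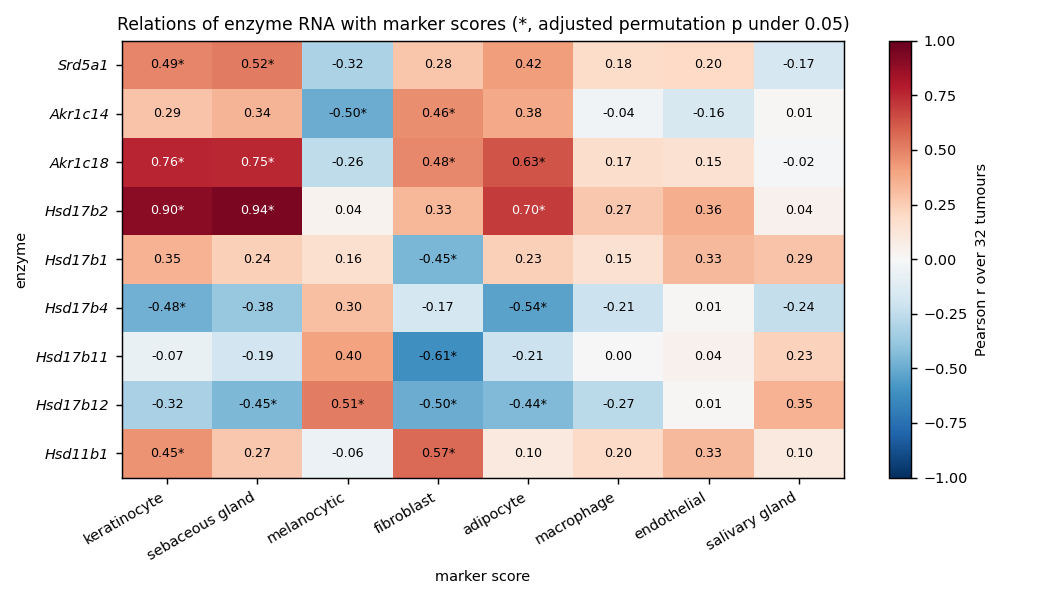
Pearson r of each tested enzyme with each marker score over 32 tumours, red for positive and blue for negative, with an asterisk for an adjusted permutation p under 0.05. Of 72 relations, 21 carry an asterisk, and for the keratinocyte, sebaceous gland and adipocyte scores r is positive for Srd5a1, Akr1c14 and Akr1c18 and negative for Hsd17b4, Hsd17b11 and Hsd17b12.

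Among the enzymes themselves, log2 CPM over the 32 tumours, which share library and depth, were most alike for Akr1c18 and Hsd17b2 (Spearman rho 0.73) and for Akr1c14 and Akr1c18 (0.69). Centred on the group means these were 0.73 and 0.34. Hsd17b11 and Hsd17b12 had a rho of 0.58, and Hsd17b2 and Hsd17b12 of -0.48. The genes most like each enzyme by Spearman rho, out of 17717 tested, were Stfa3 (0.949), Wnt3a (0.946) and Slc46a2 (0.946) for Hsd17b2, and Duoxa1 (0.882), Slc16a14 (0.864) and Dpt (0.858) for Akr1c18. For Akr1c14 they were Lynx1 (0.773), Lrrc32 (0.753) and Angpt1 (0.746), and for Srd5a1 Megf6 (0.827), Rtn4rl1 (0.784) and Foxe1 (0.765). Hsd17b12 was most like Tmem126a (0.823), Ndrg3 (0.819) and the pigment gene Slc45a2 (0.811), itself in the melanocytic marker list, and Hsd17b11 like Eci2 (0.823), Ttc38 (0.821) and Zfp24 (0.795). Hsd17b4 was most like Slc25a5 (0.823), Rabif (0.798) and Mecom (0.793). The lowest top values were those of Hsd17b1, with Dqx1 (0.742), Khdc3 (0.74) and Catsperd (0.694), and Hsd11b1, with Chil3 (0.723), Egln3 (0.72) and Tnfrsf26 (0.699). Some of these genes were low, with medians of 0.06 TPM for Wnt3a and Foxe1, 0.18 TPM for Slc46a2, 0.22 TPM for Slc16a14 and 0.24 TPM for Khdc3. Hsd17b2 was at or under 3 counts in 17 of the 32 tumours, so its rho rest partly on values at or near 0.

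The rest of the steroid pathway was read from a list of 50 other genes, of which 49 were in the tables and 29 were tested. In males 0 of 29 were called between genotypes, where 0% of all genes were called. Of the 29, 4 had an unadjusted p under 0.05, against 10.2% of all genes tested. The median log2 fold change of the 29 was -0.23, against 0.11 over all genes tested. The smallest p belonged to Akr1c13, an aldo-keto reductase of the same cluster, with medians of 30.7 and 16.4 TPM in ΔEcad and Ecad males (1.34, SE 0.52, edgeR adjusted p 0.427), and to Cyb5a, an electron donor of steroid synthesis (-0.83, SE 0.38, edgeR adjusted p 0.47). In females 3 of 29 were called, all higher in ΔEcad, and the median was 0.31, in the contrast where 1.2% of all genes were called and the keratinocyte and adipocyte markers had medians of 5.36 and 4.07. The part of those tissues was not tested. These calls lay close to the threshold and were not stable, as only 1 gene of all those tested was called in 8 of the 32 refits leaving out a tumour (the 8 listed above), with voom, and with only the tumours compared. Cyp1a1, which hydroxylates oestrogens, was at 1.93 ± 3.21 and 0.0362 ± 0.0648 TPM in ΔEcad and Ecad females (SD, n = 8 each), or 5.84 on the log2 scale (SE 1.48, edgeR adjusted p 0.0471). Hsd3b6, which makes progesterone and androstenedione from their precursors, was at 3.62 ± 7.22 and 0.0412 ± 0.0775 TPM (6.48, SE 1.69, edgeR adjusted p 0.0497), and Ugt1a1, which couples oestradiol to glucuronic acid, at 2.83 ± 2.66 and 0.0575 ± 0.0831 TPM (5.43, SE 1.42, edgeR adjusted p 0.0497). Ugt1a1 shares exons with other Ugt1a genes and is uncertain. In Ecad females at least 6 of 8 tumours were at or under 3 counts for each of these genes, so their fitted fold changes depend on the prior count.

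Neither sex comparison called any of the 29, nor did the interaction, with 9, 2 and 11 of them at an unadjusted p under 0.05 in Ecad, ΔEcad and the interaction, against 16%, 8.81% and 17.7% of all genes tested. In Ecad tumours the smallest p were those of Sult1a1, a sulfotransferase (-2.69, SE 0.83, edgeR adjusted p 0.115), and Ugt1a1 (-4.10, SE 1.35, edgeR adjusted p 0.133), both lower in females. In ΔEcad tumours they were Hsd3b6 (4.04, SE 1.46, edgeR adjusted p 0.49) and Cyp1a1 (2.99, SE 1.26, edgeR adjusted p 0.539), both higher in females. In the interaction they were Ugt1a1 (6.39, SE 1.81, edgeR adjusted p 0.061) and Cyp17a1, the enzyme that opens the androgen branch (7.68, SE 2.20, edgeR adjusted p 0.0613). Cyp17a1 was at 3.75 ± 3.79 and 0.97 ± 1.97 TPM in Ecad and ΔEcad males, and at 0.124 ± 0.264 and 7.96 ± 10.9 TPM in Ecad and ΔEcad females (SD, n = 8 each). The mean of Hsd3b6 in ΔEcad females was 1.12 TPM, against 3.62 TPM, without ΔEcad female 2, the tumour with the highest Akr1c18, Hsd17b2 and Srd5a1.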

How the data were processed

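RNA of 32 mouse melanomas was sequenced from stranded polyadenylated libraries. The authors mapped reads with STAR to GRCm38 (FastQC 0.11.5 for quality, per the labels) and deposited raw counts per gene and TPM values. The GENCODE M13 annotation is that of the study's methods, and strand use in counting is not given in the sources used here. Symbols and coordinates came from GENCODE M21, which named 50376 of 50600 gene identifiers. Floors cover counting error only, since reads carry no molecular identifiers. Nothing in the labels ties tumours to separate mice, so p-values measure the spread between these tumours.

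The two-sided quasi-likelihood test of edgeR 4.0.16 was run on the counts (TMM factors, filterByExpr by group, robust estimation, Benjamini-Hochberg adjustment over 17717 genes), in 1 model of 32 tumours with a coefficient per group. The common dispersion was 0.624. The code was tested on simulated data. Relations used log2 CPM (prior count 1) and two-sided permutation tests with adjustment over 72. The enzymes, marker lists, pathway list and tests were chosen with earlier results of these data known. Named were all 10 enzymes, Cdh1, the called pathway genes of each comparison (or the 2 with the smallest p), and the 3 genes most like each enzyme. Also tried were RLE size factors, no filter, only the tumours compared, no robust estimation, DESeq2 1.42.0, voom from limma 3.58.1, blocking on the tumour number, covariates for keratinocyte and melanocytic content, no minimum fold change and each tumour left out. R 4.3.3 and Python with numpy, pandas and scipy were used.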

Additional observations from a re-analysis of the deposited data

Results flagged for a closer look

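Of 37 groups of values examined, 3 held a single tumour that stood apart from the other 7 of its group in log2 CPM of an enzyme, by Dixon's criterion at the 95% level, which flags about 1 in 20 groups by chance. Hsd17b1 was at -2.37 in ΔEcad female 3, and the next lowest ΔEcad female was at 0.45. Hsd17b12 was at 9.34 in Ecad female 3, with the next Ecad female at 8.18. Cyp19a1 was at 1.85 in ΔEcad male 7, against -3.69 for the next ΔEcad male.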

How the results depend on the processing

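Of 1832 fold changes of single enzymes recomputed under the alternatives, 1733 kept their direction and their side of the threshold, 43 fell below it, 29 rose past it and 27 changed sign. Genes called in females between genotypes numbered 213 in the report, but 322 with RLE size factors (308 higher), 555 without a filter (458 higher), 1548 with DESeq2 (1387 higher), 10 with marker scores as covariates (4 higher), and 1 with limma voom or with only the tumours compared. Enzymes called there, 3 in the report, were 1 with the covariates and 0 with voom or with only the tumours compared. The interaction called 0 genes, against 201 with RLE, 284 without a filter, 1457 with DESeq2 and 3 with the covariates, and 0 enzymes against 1 with RLE and 4 with DESeq2. Enzyme calls in females and the interaction are descriptions, since the choice of enzymes knew the female contrast. Ecad tumours of both sexes differed in 9 genes, 16 with the covariates (9 higher, against 2), 115 with voom and 1159 with DESeq2 (2 of the enzymes). ΔEcad tumours differed in 7 genes, 44 with DESeq2 (25 higher, against 1) and 0 with only the tumours compared, and males differed in 0 genes, 37 with DESeq2. Of the relations, 12 passed when centred on group means, against 21, and 15 to 26 in the other settings. Causes of these shifts were not tested.

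The tumour number was used as a replicate block. Same-numbered tumours had correlations of -0.547 to 0.423 (18 of 48 pairs over 0.1), and 1 of 32 tumours correlated best with its own number. The numbers thus rarely marked the closest tumour. The range of differently numbered pairs was not set beside these values, so they do not exclude a pairing of some tumours. With the replicate block 1 gene and 0 enzymes were called in females, and Akr1c18 in males was -0.95 and Hsd17b1 in females 0.031, opposite in sign to the report.

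Signs also turned with the covariates for Hsd11b1 in males (0.30), Hsd17b4 in females (0.073), Akr1c18 (0.52) and Hsd11b1 (0.51) by sex in Ecad tumours, and Hsd17b1 in the interaction (-0.32). With voom they turned for Akr1c18 in males (-0.69), Hsd17b1 in females (0.073), and Hsd17b4 (-0.013) and Hsd17b12 (0.055) by sex in ΔEcad tumours.

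With each tumour left out in turn, calls in females were 1 (without any of Ecad females 1, 2, 3, 6, 7 and 8 or ΔEcad females 2 and 7) to 695 (without ΔEcad female 4), with 0 to 4 enzymes (4 without ΔEcad female 4, for example). The interaction had 0 to 848 calls (848 without ΔEcad male 3, and more than 0 in 10 refits) and 0 to 2 enzymes, Ecad tumours by sex 8 to 21 (21 without Ecad female 5), ΔEcad tumours 7 to 8, and males 0. Ranges that crossed 0 were those of Akr1c18 (-1.34 to 1.44), Hsd17b4 (-0.030 to 0.17), Srd5a1 (-0.26 to 0.015) and Hsd11b1 (-0.54 to 0.13) in males, Hsd17b1 (-0.38 to 0.068) and Hsd11b1 (-0.087 to 2.23) in females, Hsd17b1 (-0.054 to 0.42) by sex in Ecad, and Hsd17b4 (-0.043 to 0.22), Hsd17b12 (-0.21 to 0.051) and Hsd11b1 (-0.42 to 1.62) by sex in ΔEcad tumours. With only the tumours compared, no value was obtained for Hsd17b2 in females or for Akr1c14, Akr1c18 and Hsd17b2 by sex in Ecad tumours, which the filter removed, nor for the interaction. Depth limits Akr1c14, Akr1c18, Hsd17b2 and Cyp19a1 most.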
